A study of Mus musculus with 6 samples.

Results

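The genes described here encode the machinery that imports proteins into mitochondria, measured in hearts of mouse embryos at stage E13.5. Members were taken by symbol: every gene beginning with Timm or Tomm followed by a digit, and Grpel1, Grpel2, Pam16, Dnajc15, Dnajc19, Mtx1, Mtx2, Pmpca and Pmpcb. This gave 31 of the 23284 genes listed, of which 29 reached the minimum mean of 1 FPKM (reads per length and library total) and were tested. Poly(A) RNA was sequenced in 3 libraries of Tfam KO hearts (Tfam fl/fl; Nkx2.5 IRES-Cre/+) and 3 of Control hearts (Tfam fl/+; Nkx2.5 IRES-Cre/+), all of strain C57BL/6. Tfam encodes the protein that packages mitochondrial DNA and drives its transcription. All embryos carried Cre in Nkx2-5 and at least 1 floxed Tfam allele, and Cre from this locus acts in the cardiac lineage, so that cells of other lineages keep Tfam. A library pooled 5 hearts, and replicates are such pools.

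Nearly all mitochondrial proteins are made in the cytosol and imported. The TOM complex of the outer membrane is the common entry, with receptors (Tomm20, Tomm22, Tomm70a), a channel (Tomm40) and small subunits. Precursors with a cleavable presequence go on through the TIM23 complex of the inner membrane, are pulled in by a motor built on the Hsp70 Hspa9, and lose the presequence to the matrix peptidase. Carrier proteins are escorted across the intermembrane space by small TIM chaperones, hexamers of Timm9 with Timm10 or of Timm8 with Timm13, to the TIM22 complex.

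Between 12370092 and 18078620 reads lay behind a library, by totals recovered from the deposited values, and the libraries were not on a common scale. Rn45s, the ribosomal RNA precursor, held 14.95% to 31.2% of the reads of KO libraries and 27.8% to 32.5% of those of controls. These are the smallest shares that fit the values, since a gene's reads are known only up to a whole factor. Over all 10807 tested genes the median log2 fold change (KO minus Control) was 0.28 on the deposited scale. Dividing each library by a median-of-ratios size factor brought it to 0.013, so both scales are given, and "rose" and "fell" are kept for genes past an adjusted p of 0.05 on both. GC content moved with the group too: with size factors, tested genes of over 58% GC had a median of -0.26, beside 0.08 for those of 42% to 46%. Tfam itself was at 3.97, 4.77 and 6.22 FPKM in KO replicates 1 to 3 against 4.64, 5.55 and 6.62 FPKM, with overlap, and did not pass in limma (adjusted p = 0.651 as deposited, 0.152 with size factors) or limma-voom (0.0782). With size factors and a correction for GC content, chosen after seeing the data, it was lower (log2 fold change -0.50, limma adjusted p = 0.0322). Each of the 8 cardiomyocyte markers averaged at least 21.9 FPKM. The 4 fibroblast and valve mesenchyme markers summed to 214.6 to 321 FPKM in KO and 150.5 to 214.3 FPKM in controls on the deposited scale. On that scale 25.6% of all tested genes had every KO library above every control. None of these markers passed on both scales, and their part in the results was not tested. In bulk tissue, fewer cells of a type and less RNA per cell cannot be told apart.

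Of the import machinery, 3 genes passed the threshold on the deposited scale, with size factors or on both. Timm10 rose. Timm8a1 had log2 fold changes of 1.15 on the deposited scale and 0.84 with size factors, and was called on the deposited scale and in limma-voom on recovered reads. Pam16 was at -0.59 and -0.90, and was called with size factors and in limma-voom. KO and control libraries of both genes were apart on both scales. On the deposited scale limma called 2 of the 29 tested members higher (6.90%, beside 6.21% of all tested genes) and 0 lower (beside 1.16%). At an unadjusted p under 0.05 there were 9 higher, beside 23.3% of all tested genes, and 1 lower, Pam16, beside 2.53%. With size factors it called 1 higher and 1 lower (3.45% each, beside 2.07% and 2.5%), and at an unadjusted p under 0.05 there were 4 higher and 1 lower (beside 8.87% and 10.4%). Limma-voom on recovered reads called Timm8a1 higher and Pam16 lower (beside 2.57% and 4.26%; unadjusted 4 and 1, beside 8.68% and 12%), and size factors with a GC correction, chosen after seeing the data, called Timm10 higher and Pam16 lower (beside 3.61% and 3.29%). With 29 members, 1 gene is 3.45%, and these adjusted shares are near the background. The count on the deposited scale depended on single libraries: it was 12 higher (41.4%) without Tfam KO replicate 2, where 21% of all tested genes were called higher, and 1 without Control replicate 1 (beside 2.17%) or Control replicate 2 (beside 2.63%). Members had a median log2 fold change of 0.37 on the deposited scale and 0.07 with size factors.

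**Figure D1:**
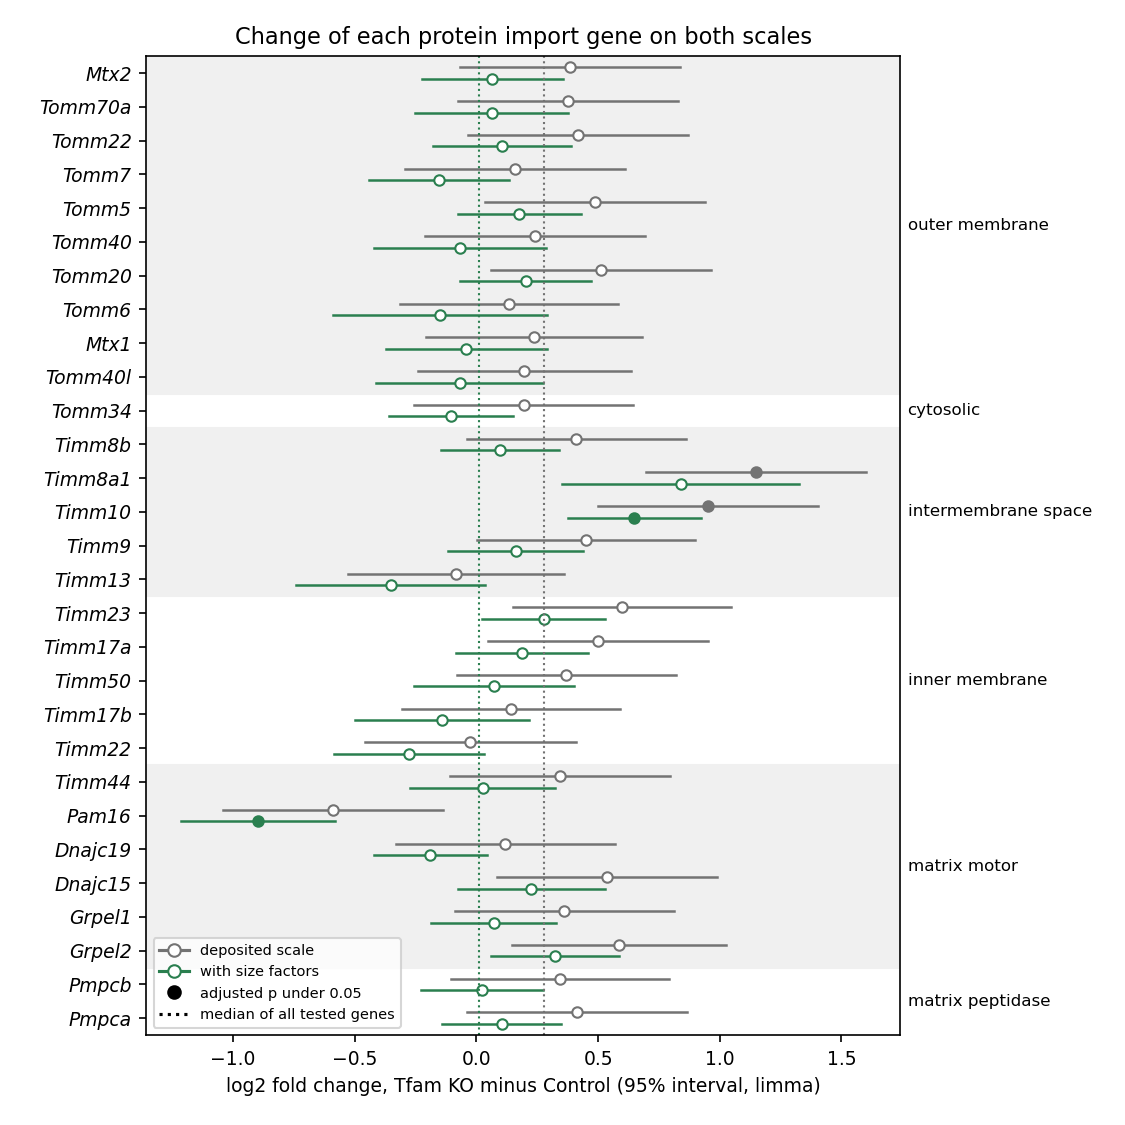
Log2 fold change of each tested import gene (x axis, Tfam KO minus Control, with limma's 95% intervals) on the deposited scale (grey) and with size factors (green), grouped by place; filled points have an adjusted p under 0.05, and dotted lines are the medians of all tested genes. Timm10 is filled on both scales, Timm8a1 on the deposited scale and Pam16 with size factors.

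Upstream sequences are shown for these 3 genes because they carry the calls. Each is the 250 bases before the RefSeq start in build GRCm38.p6, at chr2:84826771-84827020 (plus strand) for Timm10, chrX:134541671-134541920 (minus strand) for Timm8a1 and chr16:4624947-4625196 (minus strand) for Pam16. Capitals mark a match to a motif: the GABP element in Timm10, an E-box in Timm8a1 and the NRF1 element in Pam16.
Timm10: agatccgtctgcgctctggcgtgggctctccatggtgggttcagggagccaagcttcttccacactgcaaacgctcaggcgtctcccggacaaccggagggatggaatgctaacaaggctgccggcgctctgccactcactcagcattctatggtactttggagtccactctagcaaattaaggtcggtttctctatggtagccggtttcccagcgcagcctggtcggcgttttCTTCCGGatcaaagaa
Timm8a1: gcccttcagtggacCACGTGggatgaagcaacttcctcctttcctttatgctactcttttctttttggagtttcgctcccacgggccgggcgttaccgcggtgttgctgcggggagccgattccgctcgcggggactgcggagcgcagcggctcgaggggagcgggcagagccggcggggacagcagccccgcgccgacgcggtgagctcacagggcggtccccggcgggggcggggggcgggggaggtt
Pam16: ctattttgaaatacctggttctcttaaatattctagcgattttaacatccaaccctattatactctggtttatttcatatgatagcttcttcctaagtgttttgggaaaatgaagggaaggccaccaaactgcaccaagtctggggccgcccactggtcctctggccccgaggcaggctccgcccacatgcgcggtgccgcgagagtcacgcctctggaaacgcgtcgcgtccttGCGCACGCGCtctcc

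Both members called higher on the deposited scale are small TIM chaperones of the intermembrane space. Timm10, the partner of Timm9 in the main carrier chaperone, stood at 19.4, 14.5 and 17.8 FPKM in KO replicates 1 to 3 and at 8.41, 7.53 and 9.22 FPKM in Control replicates 1 to 3. Every KO library lay above every control on both scales. Its log2 fold change was 0.95 on the deposited scale (SE 0.23, limma adjusted p = 0.00153) and 0.65 with size factors (SE 0.12, limma adjusted p = 0.0139). Timm10 rested on 62 to 198 recovered reads a library, and limma-voom on these gave an adjusted p of 0.0504. It missed the threshold without Control replicate 2 on the deposited scale (limma adjusted p = 0.0514), and with size factors without KO replicate 2 (0.0591) or Control replicate 3 (0.0700).

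Timm8a1 is an X-linked gene whose human counterpart is mutated in a deafness-dystonia syndrome. Its KO values were 25.8, 24.2 and 42.3 FPKM, and its control values 8.13, 13.2 and 19.8 FPKM. All KO libraries were above all controls on both scales, and the controls themselves differed widely. This came to a log2 fold change of 1.15 (SE 0.23, limma adjusted p = 4.53e-05) on the deposited scale, and 0.84 (SE 0.22, limma adjusted p = 0.0592) with size factors. The deposited SE came from a trend shared over genes and does not reflect the wide spread of Timm8a1 itself. Limma-voom gave an adjusted p of 0.0232. Without Control replicate 1 the deposited call was lost (log2 fold change 0.84, limma adjusted p = 0.0710), and without Control replicate 3 the size-factor value passed (0.0327).

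The other 3 tested members among the small TIM genes passed on neither scale. Timm9 was at 8.29, 6.75 and 10.7 FPKM in KO and 5.35, 6.51 and 5.92 FPKM in controls (log2 fold changes 0.45 deposited and 0.16 with size factors), and Timm8b, the paralogue of Timm8a1, at 27.98, 21.3 and 31.6 against 17.6, 20.7 and 21.2 FPKM (0.41 and 0.10). For both genes every KO library exceeded every control on the deposited scale only. Timm13, the partner of Timm8, was at 5.09 ± 0.918 FPKM in KO and 5.42 ± 0.594 FPKM in controls (SD, n = 3 each) and overlapped on both scales. Its log2 fold change of -0.35 with size factors became 0.00065 with the GC correction; at 61.3% GC it is the most GC-rich tested member.

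The ratios of Timm10 to Timm9 and of Timm8a1 to Timm13 differed between KO and control libraries. A ratio of 2 genes in the same library does not depend on that library's scale, apart from the added 1 in log2(FPKM + 1). It still carries any shift with GC content, and the ratios were not corrected for it. Timm10 is at 53.4% GC, Timm9 at 46.5%, Timm8a1 at 48.8% and Timm13 at 61.3%. These ratios were picked after their values were seen and carry no test. The log2 ratio of Timm10 to Timm9 was 1.13, 0.996 and 0.68 in KO and 0.57, 0.18 and 0.56 in controls, and that of Timm8a1 to Timm13 1.94, 2.04 and 3.07 in KO and 0.50, 1.29 and 1.57 in controls. Both were higher in every KO library than in any control. Timm10b, another small TIM, bound to the TIM22 complex, is listed under its older symbol Fxc1 and so lies outside the rule. Fxc1 fell, from 19.8, 11.1 and 17.3 FPKM in controls to 8.48, 9.15 and 6.66 FPKM in KO (log2 fold change -0.88, limma adjusted p = 0.00455, deposited; -1.17, adjusted p = 0.0217, with size factors). It shares 376 exon bases with Gm45799 on the same strand and 277 with Arfip2 and 139 with Gm22504 on the opposite strand, so its reads are uncertain. The log2 ratio of Timm10 to Fxc1 was 1.002 ± 0.355 in KO and -0.83 ± 0.319 in controls (SD, n = 3 each). It was also picked after its values were seen and carries no test.

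**Figure D2:**
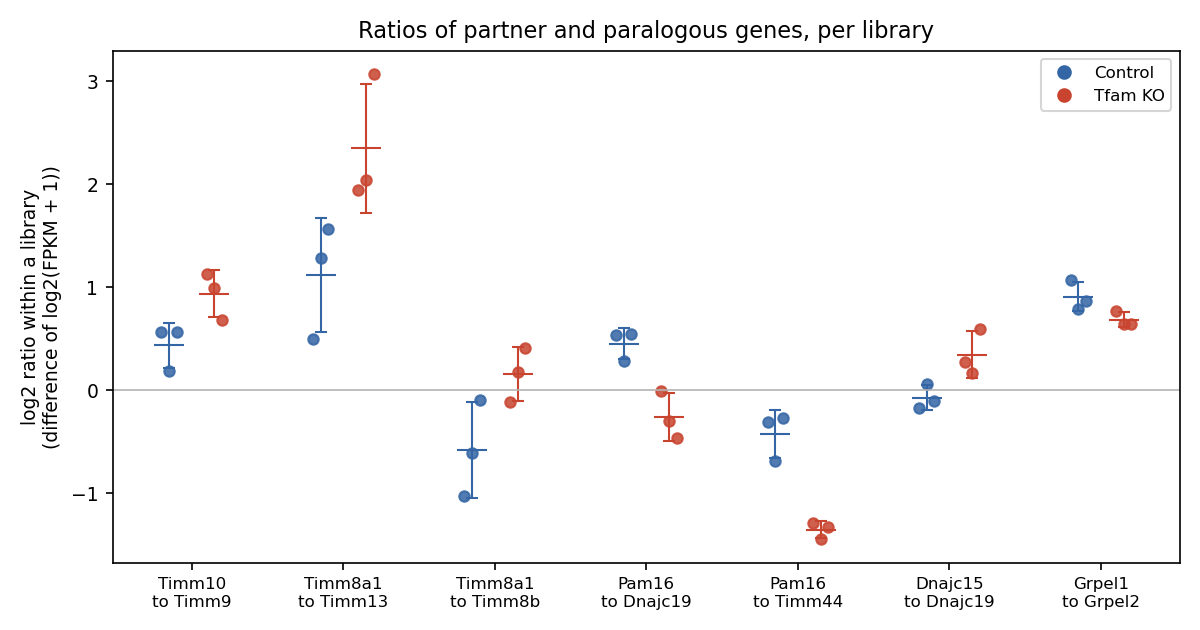
Log2 ratio of 2 genes within each library (y axis, difference of log2(FPKM + 1)) for paralogue and partner pairs in Control (blue) and Tfam KO (red) libraries; points are libraries, horizontal marks means and bars SD (n = 3). The ratio of Timm10 to Timm9 lies at 0.68 to 1.13 in KO and 0.18 to 0.57 in controls. This ratio, that of Timm8a1 to Timm13 and both ratios of Pam16 were picked after their values were seen. Of the 7 paralogue pairs, Timm17a to Timm17b, Tomm40 to Tomm40l, Pmpca to Pmpcb and Mtx1 to Mtx2 are not shown. Those pairs overlapped between the groups.

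Pam16 had the lowest log2 fold change of the 6 import motor genes on both scales. Pam16 is the J-like subunit that holds and restrains the J proteins Dnajc19 and Dnajc15, which stimulate Hsp70. It was at 16.6, 10.8 and 13.4 FPKM in KO replicates 1 to 3, and Control replicates 1 to 3 were at 20.5, 17.6 and 24.5 FPKM. The highest KO value was below the lowest control on both scales. Its log2 fold change came to -0.90 with size factors (SE 0.14, limma adjusted p = 0.00549) and -0.59 on the deposited scale (SE 0.23, limma adjusted p = 0.0884). The size-factor call held in limma-voom (adjusted p = 0.00453), with the GC correction (log2 fold change -0.80, limma adjusted p = 0.00101) and without each library in turn. It rested on 82 to 244 recovered reads a library.

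Pam16 shares 455 exon bases of the reference annotation with Glis2 on the opposite strand, and since the strand setting of the counting is not given, reads from these bases cannot be told apart. Glis2, a zinc finger transcription factor gene, was at 9.23, 5.76 and 6.96 FPKM in KO against 5.22, 4.78 and 7.78 FPKM and overlapped between the groups, with log2 fold changes of 0.27 deposited and -0.014 with size factors.

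The other motor genes passed on neither scale. Timm44, which anchors Hsp70 at the exit of the channel, was at 41.96, 31.1 and 35.3 FPKM in KO and 25.6, 28.99 and 29.7 FPKM in controls, apart on the deposited scale and overlapping with size factors (log2 fold changes 0.34 and 0.026). Dnajc15 was at 20.3, 15.2 and 29.2 FPKM against 12.2, 14.97 and 15.2 FPKM (0.54 and 0.23), and Dnajc19 at 16.7, 13.45 and 18.9 against 13.9, 14.3 and 16.4 FPKM (0.12 and -0.19). Dnajc15 was above all controls in each KO library on the deposited scale only. Dnajc19 overlapped there, but with size factors all its KO libraries were below all controls. Grpel1 and Grpel2 encode exchange factors that reset Hsp70. Grpel1 was at 9.50, 6.83 and 10.6 against 6.62, 5.86 and 7.62 FPKM and overlapped, while Grpel2, at 5.16, 4.01 and 6.43 against 2.63, 2.96 and 3.73 FPKM, was apart on both scales (log2 fold changes 0.59 and 0.32, limma adjusted p = 0.0824 and 0.168).

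Set against other motor subunits, Pam16 was lower in KO hearts. Its log2 ratio to Timm44 was -1.29, -1.45 and -1.33 in KO and -0.31, -0.69 and -0.27 in controls, and its log2 ratio to Dnajc19 -0.0046, -0.30 and -0.46 in KO and 0.53, 0.28 and 0.55 in controls. Neither ratio overlapped, and both too were picked after their values were seen. Pam16 is at 57.0% GC, Timm44 at 52.2% and Dnajc19 at 43.0%, and these ratios were not corrected for GC content. Hspa9 itself rose, from 105, 141 and 142 FPKM in controls to 404, 349 and 505 FPKM in KO (log2 fold changes 1.68 and 1.35, limma adjusted p = 4.01e-12 and 2.98e-04). The log2 ratio of Hspa9 to Timm44 was 3.49 ± 0.286 in KO and 2.16 ± 0.137 in controls (SD, n = 3 each). This ratio was likewise picked after its values were seen, was not corrected for GC content and carries no test.

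Translocase genes of the inner membrane had no call on either scale or in limma-voom. Timm23, the channel subunit of TIM23 and the member with the highest mean FPKM, was at 74.8, 58.6 and 85.6 FPKM in KO and 43.1, 50.1 and 48.98 FPKM in controls. Its groups were apart on both scales, but the change missed the threshold (log2 fold changes 0.60 and 0.28, limma adjusted p = 0.0818 and 0.217; unadjusted p under 0.05 on both). Timm17a, a further subunit of this channel, was at 31.4, 22.98 and 37.00 FPKM against 17.1, 22.7 and 23.2 FPKM (0.50 and 0.19), its paralogue Timm17b at 9.72, 5.29 and 6.64 against 5.95, 5.76 and 7.15 FPKM (0.14 and -0.14). Both overlapped on both scales. Timm50, the receptor that takes precursors from TOM to TIM23, was at 14.3, 7.74 and 12.4 against 8.04, 7.20 and 10.2 FPKM and overlapped. Timm22, the channel for carriers, had the lowest mean of the inner membrane members, at 2.89, 2.45 and 3.81 against 3.37, 2.99 and 2.89 FPKM, and overlapped too (log2 fold changes -0.024 and -0.28).

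Over all 29 tested members, 9 had every KO library above every control on the deposited scale, beside 25.6% of all tested genes, and 6 with size factors, beside 12.5%. The reverse held for 1 (Pam16) on the deposited scale, beside 2.34%, and for 2 (Pam16 and Dnajc19) with size factors, beside 11.6%.

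**Figure D3:**
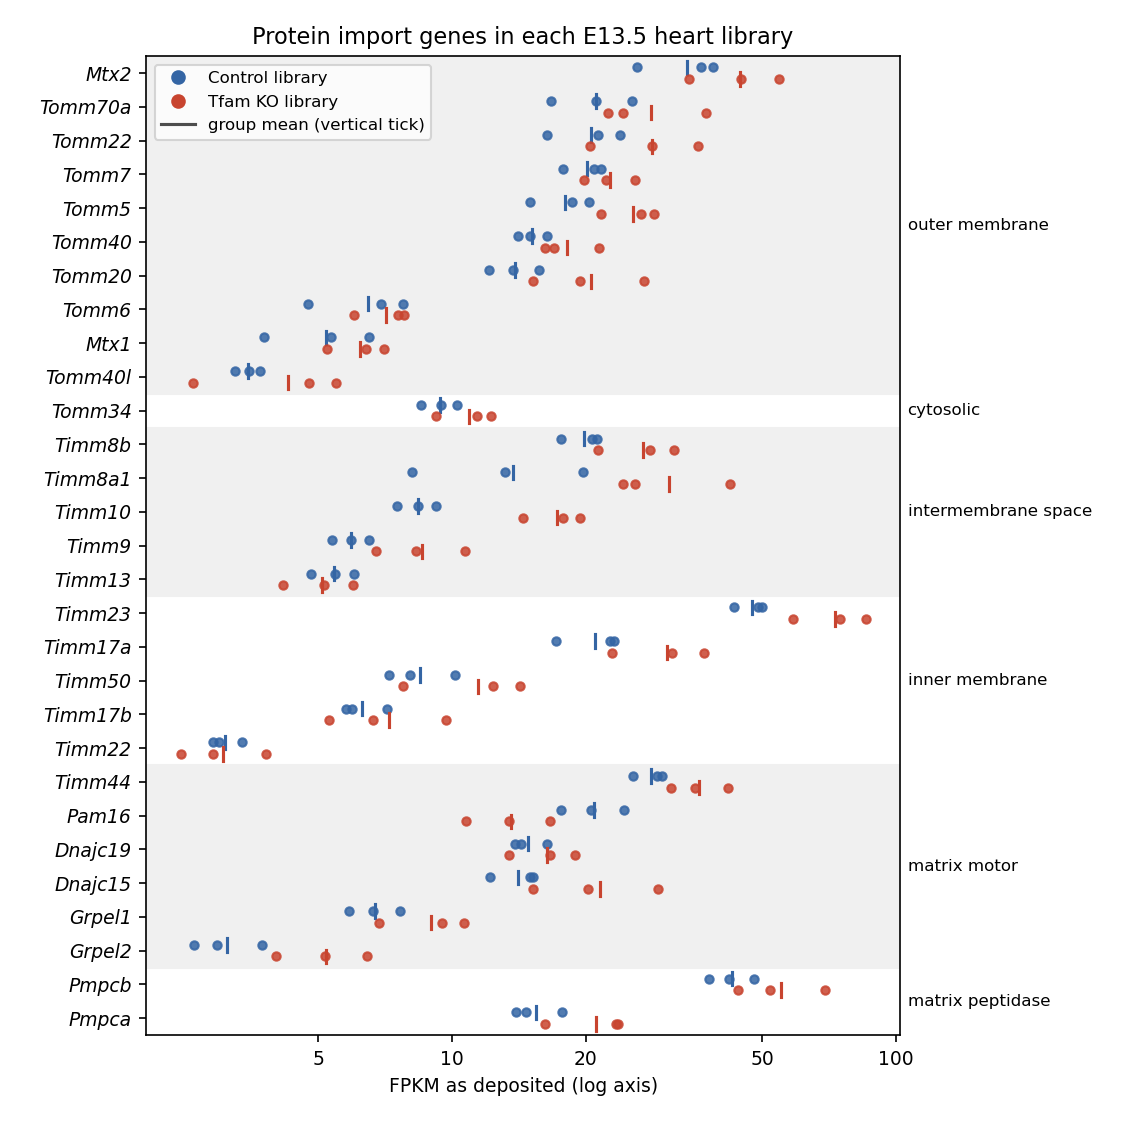
FPKM on the deposited scale (x axis, log axis) of the 29 tested import genes in each Control (blue) and Tfam KO (red) library, grouped by place; vertical ticks are group means. Timm23 spans 43.1 to 85.6 FPKM; the KO points of Timm10 and Timm8a1 lie above, and those of Pam16 below, all their control points.

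Of the outer membrane genes 10 were tested and 0 passed in limma on either scale or in limma-voom. At an unadjusted p under 0.05 there were 2 on the deposited scale, Tomm20 and Tomm5, both higher (beside 23.3% of all tested genes), and 0 with size factors (beside 8.87% higher and 10.4% lower) or in limma-voom (beside 8.68% and 12%). The channel gene Tomm40 was at 21.5, 16.95 and 16.2 FPKM in KO and 14.99, 14.1 and 16.3 FPKM in controls, and overlapped. The receptor Tomm20 was at 19.5, 15.3 and 27.1 against 12.1, 13.7 and 15.7 FPKM, overlapping on the deposited scale only. The receptor Tomm22 was at 28.2, 20.5 and 35.8 against 16.4, 21.3 and 23.9 FPKM, and Tomm70a, the receptor for carrier precursors, at 24.3, 22.4 and 37.4 against 16.7, 21.1 and 25.5 FPKM, both with overlap. Log2 fold changes of these 4 with size factors were -0.066 (Tomm40), 0.20 (Tomm20), 0.10 (Tomm22) and 0.063 (Tomm70a). The 95% intervals of the 10 outer membrane genes lay between -0.59 and 0.47 with size factors.

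Tomm40l, the second form of the channel, was the least abundant tested outer membrane gene, at 5.49, 2.60 and 4.75 FPKM in KO and 3.24, 3.49 and 3.69 FPKM in controls, and overlapped; it shares 3304 exon bases with Nr1i3 on the opposite strand. The metaxins, which help to insert barrel-shaped proteins, also overlapped, Mtx1 at 6.39, 5.23 and 7.04 against 5.33, 3.77 and 6.51 FPKM and Mtx2 at 44.8, 34.2 and 54.7 against 26.1, 36.4 and 38.8 FPKM. Tomm34, a cytosolic cochaperone, and the small subunits Tomm5, Tomm6 and Tomm7 had log2 fold changes of 0.13 to 0.49 on the deposited scale and -0.15 to 0.18 with size factors, where Tomm34, Tomm6 and Tomm7 turned negative. Tomm6 shares 859 of its 1131 exon bases with Gm21981 on the same strand, so its reads are uncertain. Mtx1 shares 759 exon bases with Gm43737 and Grpel1 411 with Tada2b, both on the opposite strand. Some other members share fewer.

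The median log2 fold change was 0.31 for the outer membrane and 0.36 for the 11 genes of the inner membrane and motor on the deposited scale, and 0.011 and 0.07 with size factors. Within a library, the mean log2(FPKM + 1) of inner membrane and motor genes minus that of outer membrane genes was -0.10, -0.26 and -0.23 in KO and -0.14, -0.12 and -0.18 in controls. The groups overlapped (means -0.20 ± 0.0872 and -0.15 ± 0.0328, SD, n = 3 each). Motor genes alone gave -0.14, -0.26 and -0.23 in KO and -0.12, -0.11 and -0.14 in controls, with every KO library below every control. The nearest values were -0.1385 (KO) and -0.1352 (Control). Among the motor genes only Pam16 was negative on the deposited scale, at a log2 fold change of -0.59. The others lay between 0.12 (Dnajc19) and 0.59 (Grpel2). Without Pam16 the motor class overlapped between the groups and its KO mean was above that of controls, so the separation rests on Pam16. The 5 intermembrane space genes gave -0.17, -0.15 and -0.23 in KO and -0.51, -0.38 and -0.43 in controls, with no overlap. The motor and intermembrane space classes were singled out after their values were seen. Without Timm10 and Timm8a1 the other 3 gave -0.59 ± 0.0991 in KO and -0.53 ± 0.0908 in controls, and overlapped.

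**Figure D4:**
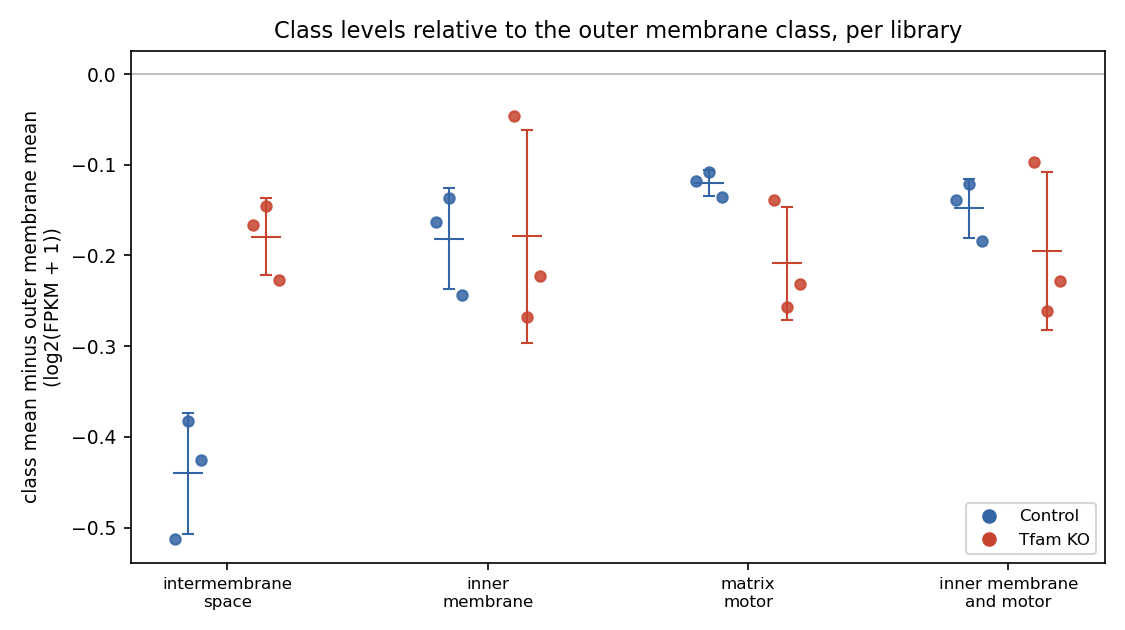
Mean log2(FPKM + 1) of a class of import genes minus that of the 10 outer membrane genes (y axis) in each Control (blue) and Tfam KO (red) library; horizontal marks are means and bars SD (n = 3). The intermembrane space class lies at -0.51 to -0.38 in controls and -0.23 to -0.15 in KO, while inner membrane and motor genes together overlap between the groups.

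The peptidase that removes presequences showed no call. Pmpcb, its catalytic subunit, was at 52.2, 44.1 and 69.1 FPKM in KO and 38.00, 42.04 and 48.00 FPKM in controls, and Pmpca, the partner subunit, at 23.5, 16.2 and 23.7 against 13.9, 14.7 and 17.7 FPKM; both overlapped. Pmpca shares 874 exon bases with Inpp5e on the opposite strand. The 2 members not tested were Timm8a2, listed at 0 in all 6 libraries, and Tomm20l, above 0 only in KO replicate 3, with 3 recovered reads.

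Paralogues were compared by 7 ratios within libraries with an exact two-sided permutation test, which cannot go below p = 0.1 with 3 libraries a group. Dnajc15 to Dnajc19 gave log2 ratios of 0.27, 0.16 and 0.60 in KO and -0.18, 0.063 and -0.10 in controls, and Grpel1 to Grpel2 gave 0.77, 0.65 and 0.65 in KO and 1.07, 0.79 and 0.87 in controls. Each of these 2 pairs was apart between groups (exact permutation p = 0.1, and 0.35 adjusted over the 7). Timm8a1 to Timm8b (0.16 ± 0.262 and -0.58 ± 0.465) and Timm17a to Timm17b (1.95 ± 0.360 and 1.59 ± 0.214, SD, n = 3 each) overlapped, with an exact permutation p of 0.2. The differences for Tomm40 to Tomm40l, Pmpca to Pmpcb and Mtx1 to Mtx2 were 0.05, 0.07 and -0.15, within the spread of replicates.

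A list of 31 further genes of import, folding and insertion gave 29 tested genes. On the deposited scale 4 were higher and 2 lower in limma (beside 6.21% and 1.16% of all tested genes), with size factors 3 and 2 (beside 2.07% and 2.5%), and the median log2 fold changes were 0.47 and 0.16. Beside Hspa9, the chaperonin Hspd1 (409 ± 135 against 199.7 ± 39.3 FPKM) and the Hspa9 cochaperone Dnaja3 (26.3 ± 4.25 against 11.7 ± 1.49 FPKM, SD, n = 3 each) rose. Limma adjusted p was 2.35e-04 deposited and 0.0480 with size factors for Hspd1, the latter just under the threshold. For Dnaja3 it was 1.29e-04 and 0.00408. Hspe1, the partner of Hspd1, was called on the deposited scale and in limma-voom but not with size factors (159 ± 30.97 against 88.2 ± 6.71 FPKM; limma adjusted p = 0.00715, 0.0349 and 0.0648). Beside Fxc1, Romo1 fell; it encodes a small inner membrane protein linked to TIM22 and to reactive oxygen species. Romo1 went from 21.4, 8.85 and 14.3 FPKM in controls to 3.93, 4.23 and 6.88 FPKM in KO (log2 fold changes -1.35 and -1.64, limma adjusted p = 3.60e-07 and 0.00677). It shares 148 exon bases with Nfs1 on the opposite strand. Timm21 and Timm29, listed as 1700034H14Rik and 1810026J23Rik, passed on neither scale (log2 fold changes 0.43 and 0.22 on the deposited scale).

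RefSeq promoters (250 bases before to 50 after the start, GRCm38.p6) were at hand for 28 of the 31 members and were searched on both strands. The element TGATGNAA, bound by ATF4 with CHOP, was in 0 of 28, beside 4.51% of the 27025 promoters and 2.63% of those of tested genes. The other 3 motifs were picked after the values were seen. CCGGAAG, the GABP (ETS) letters, was in 12 (42.9%, beside 9.93% of all promoters and 21.1% of tested genes), Timm10 among them. The E-box CACGTG was in 5 (17.9%, beside 8.09% and 12.1%): Timm10, Timm8a1, Timm9, Tomm20 and Tomm20l. The match in Timm10 lies after the start. The NRF1 element was in 3 (10.7%, beside 5.19% and 12.2%): Pam16, Timm8b and Tomm20. A match describes letters in this window only.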

How the data were processed

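The values deposited by the authors are log2(FPKM + 1), 1 per gene symbol and library; FPKM is named in the file names and base 2 follows from the values. CASAVA 1.8.2, TopHat2 2.0.7, HTSeq 0.5.3 and build mm9 are named in the submitters' processing notes, without roles; the strand setting and the FPKM computation are not given in the sources used here. Groups follow the sample titles. Whole reads were recovered from the FPKM steps for all 17876 genes above 0 (tolerance 1e-05 of a read, wider for high counts). Each gene's reads are known up to a whole factor shared by all libraries. The library totals rest on 199 genes with a single reference transcript length (GENCODE vM21), and 171 genes gave the next best total. Limma 3.58.1 (R 4.3.3) was fitted with a variance trend and group alone to 10807 genes averaging at least 1 FPKM. Tests were two-sided, with Benjamini-Hochberg adjustment at 0.05. The fits were also run on simulated reads, which held no GC trend and so do not show how the fits perform under the trend seen here. Log2(FPKM + 1) understates changes of low genes. Values per library are given for members past the threshold on either scale, paralogue pairs and defining subunits, and for Timm9 and Timm13, added later; other members are given by range. Alternatives changed the scale, pseudocount, filter, variance model, block and libraries. The members and lists were chosen with earlier results of these data known. With size factors and in limma-voom, p-values combine a gene's own spread between pools with a spread shared over genes. On the deposited scale limma took the spread almost wholly from the shared trend, with an SE of 0.22 to 0.23 for every tested member. Deposited limma p-values therefore do not reflect a gene's own spread.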

Additional observations from a re-analysis of the deposited data

How the results depend on the processing

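On the deposited scale 2 members were higher and 0 lower. Each of size factors, a common median, limma-voom and the GC correction gave 1 higher and 1 lower. For the common median this stood beside 2.11% and 2.87% of all tested genes, and the other backgrounds are given above. No filter on low values gave 1 higher and 0 lower, beside 0.811% and 0.123% of the 17876 genes then tested. The deviations of same-numbered libraries from their group means correlated at 0.36, 0.07 and 0.16 for replicates 1 to 3. KO replicate 3 correlated best with Control replicate 2 (0.25). These values cannot settle whether libraries of the same number were paired. With the replicate block, 8 members were higher and 1 lower on the deposited scale (27.6% and 3.45%, beside 19.3% and 2.23% of all tested genes). With the block and size factors there were 2 and 1 (beside 2.66% and 3.65%), also with the GC correction added (beside 3.45% and 3.54%). Under the block, Timm8a1 passed with size factors (limma adjusted p = 0.00616) and Pam16 on the deposited scale (limma adjusted p = 0.0145), unlike without it. Leaving out each library in turn gave 1 to 12 higher (beside 2.17% to 21% of all tested genes) and 0 lower (beside 0.481% to 1.04%). With size factors it gave 0 to 1 higher (beside 1.28% to 2.02%) and 1 lower (beside 1.09% to 3.13%). The 10 genes added without KO replicate 2 were Dnajc15, Grpel2, Pmpca, Timm9, Timm17a, Timm23, Timm50, Tomm5, Tomm20 and Tomm22. The inner minus outer difference of medians (0.05) was -0.015 with a filter at 5 FPKM and -0.083 to 0.11 without each library. The cause of these shifts was not tested. The members that changed sign had these log2 fold changes, the same with the block where it was run: with size factors, Dnajc19 -0.19, Mtx1 -0.041, Timm17b -0.14, Tomm34 -0.10, Tomm40 -0.066, Tomm40l -0.069, Tomm6 -0.15, Tomm7 -0.15; with a common median, Dnajc19 -0.17, Mtx1 -0.051, Timm17b -0.14, Tomm34 -0.093, Tomm40 -0.045, Tomm40l -0.090, Tomm6 -0.15, Tomm7 -0.13; with limma-voom, Dnajc19 -0.21, Mtx1 -0.090, Timm17b -0.21, Tomm34 -0.13, Tomm40 -0.10, Tomm40l -0.089, Tomm6 -0.20, Tomm7 -0.17; with the GC correction, Dnajc19 -0.26, Mtx2 -0.013, Pmpcb -0.027, Timm13 0.00065, Timm17b -0.12, Timm44 -0.0027, Tomm34 -0.0999, Tomm40l -0.096, Tomm6 -0.15, Tomm7 -0.23, Tomm70a -0.00085. Without each library, over both scales, the ranges of members given with their library values whose sign changed were Dnajc19 -0.20 to 0.24, Mtx1 -0.20 to 0.39, Mtx2 -0.053 to 0.56, Pmpcb -0.031 to 0.49, Timm13 -0.48 to 0.032, Timm17b -0.32 to 0.32, Timm22 -0.37 to 0.085, Timm44 -0.057 to 0.44, Timm50 -0.068 to 0.61, Tomm40 -0.16 to 0.32, Tomm40l -0.21 to 0.45, Tomm70a -0.039 to 0.52. Paralogue ratios that changed sign ranged over Mtx1 to Mtx2 -0.39 to 0.049, Pmpca to Pmpcb -0.040 to 0.15, Tomm40 to Tomm40l -0.17 to 0.20 without each library.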
